A study of Arabidopsis thaliana with 12 samples.

Results

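The genes described here are 4 neighbouring loci on chromosome 4 of Arabidopsis thaliana that encode lipid transfer proteins of the hybrid proline-rich type, AT4G12470 (AZI1), AT4G12480 (EARLI1), AT4G12490 and AT4G12500. They were matched by locus to the probe sets of the array through its gene annotation. Of the 4 genes, 2 carried a probe set, AT4G12490 (254832_at) and AT4G12500 (254819_at), out of 13333 genes with a probe set of their own. No probe set was matched to AZI1 or EARLI1, so these genes were not analysed here. Both probe sets end in _at without the s or x that marks probes shared with other transcripts. The probes' own sequences were not used here, so signal from near-identical copies in the cluster is uncertain.

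Both genes were chosen by values of these same arrays. AT4G12490 stood out by its lower level at low than at high nitrogen in hni9 roots, and AT4G12500 by its lower level in hni9 than in WT roots at low nitrogen. For these 2 comparisons, and for the interaction built from them, the values below describe the genes and carry no test. The nitrogen response of WT and the comparison of the genotypes at high nitrogen were not used to single the genes out and were tested, although each shares 3 arrays with a comparison that was.

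Hybrid proline-rich proteins of this kind are small and secreted or membrane-bound. They join a proline-rich stretch to a domain whose 8 cysteines fold it into a pocket for lipids. AZI1, named for its induction by azelaic acid, is known from Arabidopsis leaves for priming distant tissue against infection, and EARLI1 was isolated as a gene that aluminium induces early in roots. HNI9/IWS1, the gene mutated in hni9, is a factor of transcript elongation that is known to act in the repression of nitrate uptake genes when nitrogen is ample.

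RNA was taken from roots of WT and hni9 plants kept at a steady nitrogen supply, either 10 mM NH4NO3 (high nitrogen) or 0.3 mM KNO3 (low nitrogen). The 4 groups of genotype and supply held 3 biological replicates each, 12 Affymetrix arrays in all. The supplies differ in the nitrogen salt as well as its amount, and the labels give neither the age of the plants nor the kind of mutation in hni9. The hni9 arrays of replicates 1 and 2 are titled hni9-1 and hni9-2 and those of replicate 3 hni9, and the labels leave it unsaid whether that number is an allele's.

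Values are intensities on the linear scale of the deposited table, on which the median of an array lay between 199 and 221. The number of arrays limits the precision. Of 6 markers of root hairs and epidermis 2 were measured, EXPA7 and EXPA18, expansins that loosen the root hair wall. Their summed intensity was 1526 to 1860 in WT at high, 1152 to 1355 in WT at low, 1456 to 1579 in hni9 at high and 1297 to 1554 in hni9 at low nitrogen. The only measured marker of cortex and endodermis, 1 of 6, was AT1G62500, which is also among the family genes below. In WT it read 106.8 to 235.5 at high and 98.7 to 132.5 at low nitrogen. In hni9 it read 160.9 to 223.1 at high and 90.8 to 134.2 at low nitrogen, a separation in this direction that 11.4% of all probe sets had. The part of these cells in the levels of AT4G12490 and AT4G12500 was not tested. No marker of the stele (0 of 8), the root cap (0 of 4) or green tissue (0 of 13) carried a name, so admixture of shoot material was not checked. For the GAPDH control, signal of the 3′ probe set over that of the 5′ one was 1.31 to 1.35 on the WT arrays at high nitrogen, against 0.921 to 1.27 on the remaining 9 arrays.

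AT4G12500 was brightest in WT roots at low nitrogen. Its intensity there was 2519.6, 2448 and 2334.5 in replicates 1, 2 and 3, a mean of 2434 ± 93.3 (SD, n = 3). In WT at high nitrogen the replicates read 1152, 708 and 692, a mean of 851 ± 261. In hni9 at high nitrogen they read 1184, 489 and 831, a mean of 835 ± 347. These high nitrogen groups of the 2 genotypes overlapped. In hni9 at low nitrogen the replicates read 451, 249.9 and 383, a mean of 361 ± 102, and each of them lay below all 9 arrays of the other groups. The order of the means was therefore WT at low nitrogen, WT and hni9 at high nitrogen, which did not differ beyond their spread, and hni9 at low nitrogen.

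AT4G12490 had another order of levels. In WT at high nitrogen its replicates read 2096, 1539.5 and 1488, a mean of 1708 ± 337 (SD, n = 3). In hni9 at high nitrogen they read 2245, 1086.5 and 2072, a mean of 1801 ± 625, which enclosed the WT values. In WT at low nitrogen they read 1287.5, 1336 and 1379, a mean of 1334 ± 45.9, just below all 3 WT arrays at high nitrogen. In hni9 at low nitrogen they read 579, 207 and 403, a mean of 396 ± 186, again below all 9 other arrays. Both genes thus had their lowest levels in the mutant at low nitrogen. Each gene was singled out by low values on these arrays, which favours this, so it only describes them. The share of all probe sets that lay below all 9 other arrays in this group was not counted. All AT4G12500 values and 11 of 12 AT4G12490 values lay above the median of their own array. In whole roots, fewer cells that express a gene and less of its RNA per cell cannot be told apart.

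**Figure D1:**
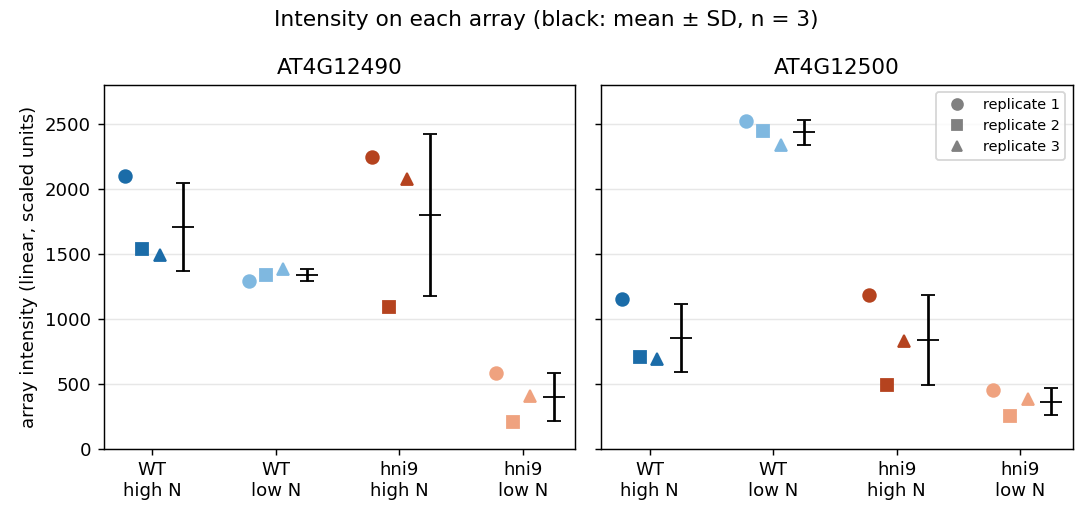
Intensity of AT4G12490 (left) and AT4G12500 (right) on each of the 12 arrays, by group, with replicates as different symbols and the mean ± SD of 3 arrays in black. AT4G12500 sits between 2334.5 and 2519.6 in WT at low nitrogen, above all other arrays. Both genes sit lowest in hni9 at low nitrogen, which their choice by low values on these arrays favours.

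In WT roots the question is how either gene responds to the nitrogen supply. AT4G12500 rose at low nitrogen by 1.54 ± 0.27 on the log2 scale (± standard error, 95% interval 0.95 to 2.12, limma adjusted p = 0.0035), which is 2.91-fold, and all 3 arrays at low nitrogen lay above all 3 at high nitrogen. Of 22746 probe sets 90 had a larger rise. The WT arrays at low nitrogen also served to single AT4G12500 out, by its lower level in hni9. That choice favours high values on them, so the test leans towards a rise. AT4G12490 had a change of -0.34 ± 0.30 (95% interval -0.98 to 0.31, limma adjusted p = 0.644), although its groups did not overlap either, with low nitrogen below. So 1 of the 2 genes passed the threshold, a false discovery rate of 0.05, with a rise. In this comparison 2.84% of all probe sets were called higher and 5.74% in either direction, and in 24.9% the groups did not overlap. With replicates 1 and 2 alone the change of AT4G12500 was 1.44 and lost its call (limma adjusted p = 0.119). Its WT arrays at high nitrogen are those with the GAPDH ratios of 1.31 to 1.35, and the part of that difference in the result was not tested.

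In hni9 roots the same change of supply went with lower levels of both genes, the comparison through which AT4G12490 was singled out. AT4G12490 was lower at low nitrogen by a log2 difference of -2.18 ± 0.30, or 4.54-fold. AT4G12500 had -1.13 ± 0.27, or 2.18-fold. For both genes all 3 arrays at low nitrogen lay below all 3 at high nitrogen, a separation in this direction that 11.4% of all probe sets had. Within each replicate number the low nitrogen array was the lower one. The log2 difference of AT4G12490 was -1.93, -2.31 and -2.32 in replicates 1, 2 and 3, and that of AT4G12500 was -1.36, -0.93 and -1.09. In WT the same differences were 1.12, 1.77 and 1.73 for AT4G12500 and -0.70, -0.20 and -0.11 for AT4G12490. AT4G12500 thus differed with nitrogen in opposite directions in the genotypes. The WT change of AT4G12490 did not pass its test, and it was -0.18 without WT replicate 1 at high nitrogen.

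At high nitrogen, the genotypes were compared to see whether the mutant differs under ample supply. Of the 2 genes 0 passed, by limma's adjusted p and at an unadjusted p under 0.05, where 7.67% of all probe sets were called by the adjusted p. AT4G12490 had a log2 difference of 0.03 ± 0.30 (95% interval -0.62 to 0.67, limma adjusted p = 0.978). The hni9 arrays at high nitrogen also served to single AT4G12490 out, which favours high values on them, so its estimate leans upwards. AT4G12500 had -0.07 ± 0.27 (95% interval -0.66 to 0.51, limma adjusted p = 0.923). The intervals leave room for differences of 0.67 in AT4G12490 and -0.66 in AT4G12500, so these arrays do not show that the levels are equal. Both signs turned when single arrays were left out, over a range of -0.17 to 0.35 for AT4G12490 and -0.37 to 0.26 for AT4G12500.

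At low nitrogen, the comparison through which AT4G12500 was singled out, both genes were lower in hni9 than in WT. AT4G12500 had a log2 difference of -2.74 ± 0.27, or 6.67-fold. It was singled out by this value, so its rank, with 4 of 22746 probe sets more negative, only describes it. AT4G12490 had -1.82 ± 0.30, or 3.54-fold, with 32 probe sets more negative. Its choice through the same hni9 arrays favours low values on them, so this rank only describes it as well. All 3 hni9 arrays lay below all 3 WT arrays for each gene, a separation in this direction that 9.64% of all probe sets had. The interaction (hni9 less WT at high nitrogen, minus the same difference at low nitrogen) was 2.66 ± 0.39 for AT4G12500 and 1.85 ± 0.43 for AT4G12490.

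**Figure D2:**
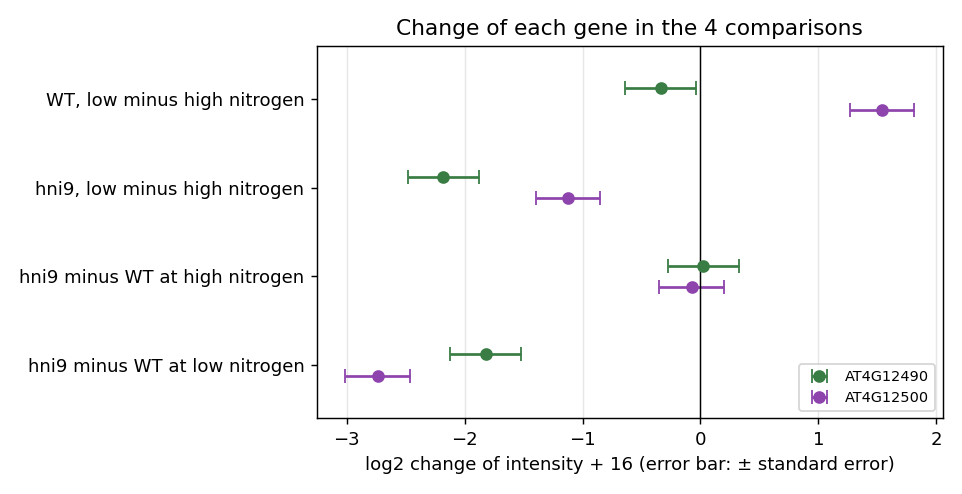
Log2 change of AT4G12490 and AT4G12500 in the 4 comparisons between groups, with bars of ± 1 standard error from the limma fit to 12 arrays. The genes lie on opposite sides of 0 in WT (-0.34 and 1.54) and both lie below 0 in hni9 (-2.18 and -1.13) and in hni9 against WT at low nitrogen (-1.82 and -2.74).

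The 2 genes, which are direct neighbours in locus order, did not move by the same amount. Their log2 difference within an array, AT4G12500 less AT4G12490, shows only unequal change, since levels of different probe sets cannot be set against each other. In WT it was -0.85, -1.10 and -1.09 at high nitrogen and 0.96, 0.87 and 0.75 at low nitrogen, means of -1.01 ± 0.14 and 0.86 ± 0.10 (SD, n = 3). In hni9 it was -0.91, -1.13 and -1.30 at high nitrogen and -0.35, 0.25 and -0.07 at low nitrogen, means of -1.11 ± 0.19 and -0.06 ± 0.30. In each genotype all 3 arrays at low nitrogen lay above all 3 at high nitrogen. In hni9 the choice of AT4G12490 by its lower level at low nitrogen favours such a shift, so that separation only describes. In WT the choice of AT4G12500 favours its high values at low nitrogen, so the test there leans towards such a shift. The shift was 1.87 in WT (two-sided exact permutation p = 0.1, the smallest that 3 arrays against 3 allow, and 0.2 adjusted over 2 tests) and 1.06 in hni9. Between the genotypes at high nitrogen the difference shifted by -0.10 (exact permutation p = 0.4, adjusted 0.4), and at low nitrogen by -0.92. The shift at low nitrogen is likewise built on the comparison that singled out AT4G12500. The test at high nitrogen leans towards a negative shift, since the choice of AT4G12490 favours its high values on the hni9 arrays.

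**Figure D3:**
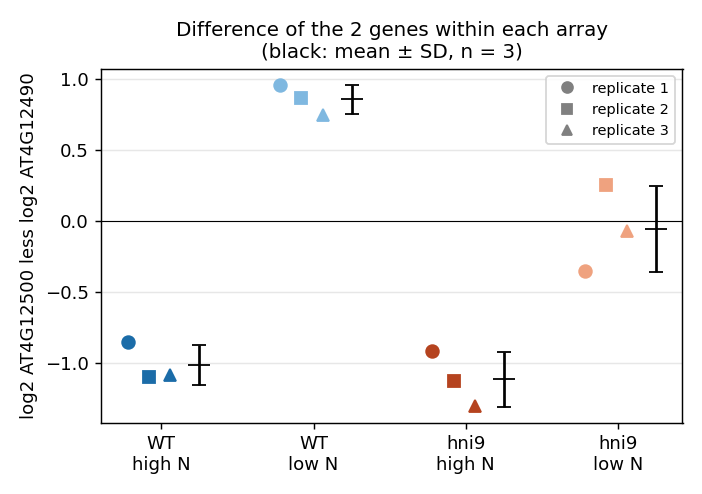
Log2 value of AT4G12500 less that of AT4G12490 within each array, by group, with replicates as symbols and the mean ± SD of 3 arrays in black. The high nitrogen arrays of both genotypes lie between -1.30 and -0.85, the WT arrays at low nitrogen between 0.75 and 0.96, and the hni9 arrays at low nitrogen between -0.35 and 0.25.

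Within groups the 2 genes varied together, except in WT at low nitrogen. There the deviations were small and ran in opposite order. They were -0.05, 0.003 and 0.05 for AT4G12490 and 0.05, 0.009 and -0.06 for AT4G12500 in replicates 1, 2 and 3. The WT correlation below thus rests mainly on the high nitrogen arrays. Over the 12 arrays the deviations of each gene from its group means had a Pearson correlation of 0.909 (Spearman 0.937), and it was 0.950 over the 6 WT arrays and 0.925 over the 6 hni9 arrays. These points share their array and its scaling, and 12 deviations around 4 means hold less than 12 independent values. Of the other 22745 probe sets 38 had a higher correlation of this kind with AT4G12490 than its neighbour had, and 12 with AT4G12500. Their levels, which include the differences between groups, had a Pearson correlation of 0.672 (Spearman 0.552).

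Much of that spread lay between replicate numbers of hni9. Replicate 2, titled hni9-2, was the lowest of its group for both genes at both supplies, with log2 deviations of -0.65 and -0.66 at high and -0.78 and -0.47 at low nitrogen for AT4G12490 and AT4G12500. With replicates 1 and 3 alone the correlation of the deviations was 0.783. Without replicate 2 at high nitrogen the nitrogen difference of hni9 was -2.51 for AT4G12490 and -1.46 for AT4G12500, and without replicate 2 at low nitrogen it was -1.79 and -0.89. Replicate 1 was the highest in 7 of the 8 pairs of gene and group, the exception being AT4G12490 in WT at low nitrogen. The WT arrays at low nitrogen spread least, with an SD of 0.05 for AT4G12490 and 0.06 for AT4G12500 on the log2 scale, against 0.72 and 0.42 for hni9 at low nitrogen.

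**Figure D4:**
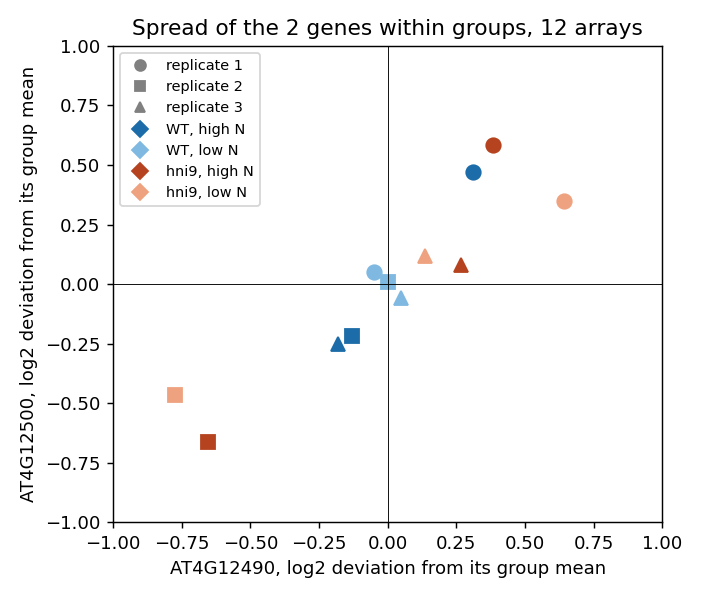
Log2 deviation of AT4G12490 (horizontal) and AT4G12500 (vertical) from their group means on 12 arrays, with groups as colours and replicate numbers as symbols. The points lie along a rising line (Pearson 0.909), with both hni9 arrays of replicate 2 at the lower left, at -0.65 and -0.66 and at -0.78 and -0.47.

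Neighbouring loci on the chromosome were read in the same way. Of the loci from AT4G12400 to AT4G12590 that are not among the 4 genes, 6 had a probe set of their own, among them the cochaperone gene Hop3 and SKU5, a gene known for directional root growth. By limma 0 of the 6 passed in any of the 4 comparisons (4 of the 24 values at an unadjusted p under 0.05), where 5.74% of all probe sets were called in WT, 5.1% in hni9, 7.67% between the genotypes at high and 2.06% at low nitrogen. These shares are by adjusted p, and the share of all probe sets at an unadjusted p under 0.05 was not counted, here or below. Medians of the 6 loci were -0.11 in WT, -0.11 in hni9, 0.17 between the genotypes at high and -0.04 at low nitrogen. Over all probe sets they were -0.02, -0.05, 0.03 and 0.00. The nearest measured locus on the far side of the cluster is covered by a probe set with the s suffix (254820_s_at) that the annotation lists for AT4G12510 and AT4G12520 together, so its signal cannot be given to either.

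That shared probe set had a pattern unlike that of AT4G12490 and AT4G12500. In WT it read 10072, 12340.2 and 10145 at high and 10795, 9663 and 10821 at low nitrogen, and these groups overlapped. In hni9 it read 6913, 5164 and 6362 at high and 10325, 5910 and 11797 at low nitrogen, and replicate 2 was again the lowest. At high nitrogen it fell in hni9 by 0.82 on the log2 scale (standard error 0.20, limma adjusted p = 0.0222), in the comparison in which 0 of the 2 genes passed. This call was lost when either WT replicate 2 (limma adjusted p = 0.0952), WT replicate 3 (0.0523), hni9 replicate 2 (0.0754) or hni9 replicate 3 (0.0531) of the high nitrogen groups was dropped, and without the intensity trend (0.0826). At low nitrogen, where AT4G12490 and AT4G12500 were lower in hni9, it had -0.22 ± 0.20 (limma adjusted p = 0.733). The differences between the probe sets in these responses were not tested.

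**Figure D5:**
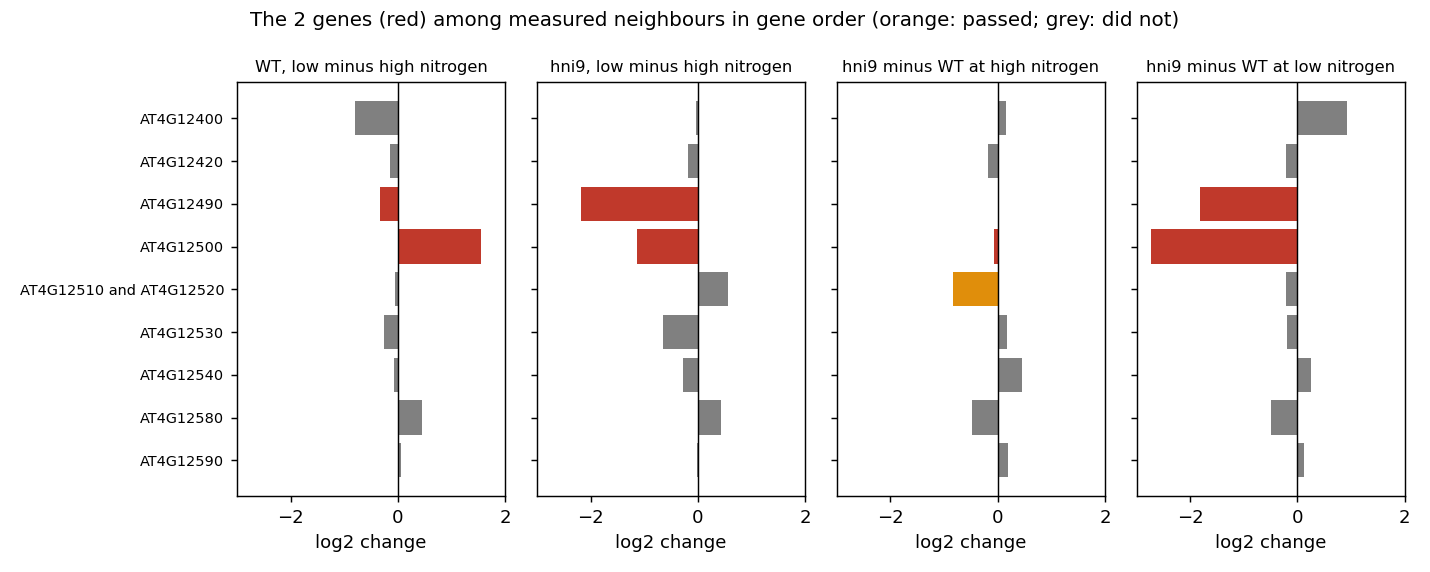
Log2 change in the 4 comparisons for AT4G12490 and AT4G12500 (red) and the measured loci around them, in locus order from top to bottom, with changes past a false discovery rate of 0.05 in orange and the others in grey. Among the neighbours 1 bar is orange, that of the probe set shared by AT4G12510 and AT4G12520, at -0.82 in hni9 against WT at high nitrogen.

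The wider family of proline-rich and related proteins with the same cysteine pattern was measured in part. Of 24 listed genes 9 had a probe set of their own and 3 probe sets were shared between family genes or with another locus. In WT 0 of the 9 passed between the supplies by limma (1 at an unadjusted p under 0.05, with 5.74% of all probe sets called), and the shared set of AT5G46890 and AT5G46900 (248844_s_at) fell by 0.51 on the log2 scale (limma adjusted p = 0.0265), a call lost without any 1 of the 6 WT arrays (0.0583 to 0.102) and with arrays centred on their medians (0.0896). In hni9 0 of the 3 shared probe sets passed. Of the 9 genes 1 passed there (3 at an unadjusted p under 0.05), where 5.1% of all probe sets were called. It was AT4G22460, which rose by 1.13 ± 0.24 (limma adjusted p = 0.011), with mean intensities of 105 ± 43.5 at high and 239.5 ± 39.8 at low nitrogen (SD, n = 3), the opposite direction to AT4G12490 and AT4G12500. That call was lost without hni9 replicate 1 at low nitrogen (0.0547) and in a fit to the hni9 arrays alone (0.107), and with replicates 1 and 2 alone (0.194).

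Between the genotypes at high nitrogen 1 of the 9 family genes passed (2 at an unadjusted p under 0.05), a share near the 7.67% of all probe sets called. It was again AT4G22460, which changed by -1.30 ± 0.24 in hni9 (limma adjusted p = 0.00367, or 0.104 with replicates 1 and 2 alone). Of the 3 shared probe sets 2 were lower, that of AT4G12510 and AT4G12520 given above and that of AT5G46890 and AT5G46900, which changed by -0.97 ± 0.12 (limma adjusted p = 0.000283), from 9990.1 ± 306 in WT to 5126 ± 818 in hni9. At low nitrogen 0 of the 9 passed by limma (2 at an unadjusted p under 0.05), where 2.06% of all probe sets were called, with log2 differences of -0.95 to 0.81 and a median of -0.26, against 0.00 over all probe sets.

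Other genes of lipid transfer and of the resistance pathway in which AZI1 acts were few on the annotated array. Of 12 type 1 lipid transfer proteins 3 were measured, of 10 genes of systemic resistance signals 3, and of 12 salicylic acid genes 1. In the 4 comparisons 0 of these 7 genes passed by limma (7 of the 28 values at an unadjusted p under 0.05). By adjusted p 5.74% and 5.1% of all probe sets were called between the supplies in WT and hni9. Between the genotypes at high and low nitrogen 7.67% and 2.06% were. The unadjusted count has no such share beside it, so it cannot be read as an excess. The nearest to the threshold, picked after their values were seen, were the lipid transfer gene AT2G18370, with 0.43 ± 0.12 between low and high nitrogen in hni9 (limma adjusted p = 0.0677), and UGT76B1, which glycosylates regulators of salicylic acid responses, with 0.66 ± 0.20 in WT (0.0681). The lipid transfer partner DIR1, the kinase MPK3 and the neighbouring AIR1 carried no named probe set and were not analysed here.

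Among the 2 root hair markers, EXPA18 fell in WT at low nitrogen by 0.54 on the log2 scale (limma adjusted p = 0.0226), where AT4G12500 rose. It lost that call with arrays centred on their medians (0.0673). EXPA7 rose in hni9 at high nitrogen by 0.47 (limma adjusted p = 0.0235) and at low nitrogen by 0.65 (0.00862), and EXPA18 changed by -0.86 in hni9 at high nitrogen (0.00102). The part of root hair cells in the levels of AT4G12490 and AT4G12500 was not tested. The call of EXPA18 in WT was lost when WT replicate 1 (0.0726) or 2 (0.113) at high or WT replicate 1 (0.0666) or 3 (0.103) at low nitrogen was dropped. That of EXPA7 at high nitrogen was lost when WT replicate 1 (0.0917) or 3 (0.0773), or replicate 1 (0.0899) or 2 (0.0603) of hni9, was dropped.

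The genes most like each of the 2 over the 12 arrays were sought among 5978 probe sets with 1 annotated gene and a mean above the median of all. Closest to AT4G12490 were AT1G25550, AT4G29960 and AT5G38710, with Pearson correlations of 0.928, 0.924 and 0.920 (Spearman 0.818, 0.699 and 0.895). All 3 had their lowest mean in hni9 at low nitrogen, which a choice by likeness over the same arrays favours. AT5G38710 read 409 ± 60.8 and 269 ± 58.9 in WT and 399.6 ± 151 and 138 ± 60.5 in hni9 at high and low nitrogen (SD, n = 3), a log2 difference of -1.46 in hni9 where AT4G12490 had -2.18, and of -0.59 in WT where AT4G12490 had -0.34. AT4G29960 differed by no more than 0.37 in any comparison.

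Closest to AT4G12500 were AT3G20340, AT5G62720 and AT1G50060, with Pearson correlations of 0.882, 0.864 and 0.862 (Spearman 0.692, 0.818 and 0.832). AT3G20340 read 195 ± 34.9 and 653.5 ± 39.6 in WT and 164 ± 70.3 and 140.3 ± 68.3 in hni9 at high and low nitrogen. It too was brightest in WT at low nitrogen, which the choice by likeness favours. Its log2 difference in hni9 between the supplies was -0.23, against -1.13 for AT4G12500. The 2 sets of 3 genes had no gene in common. Correlations of the deviations within groups were lower, 0.611, 0.636 and 0.760 for the first 3 and 0.528, 0.742 and -0.21 for the second, against 0.909 between AT4G12490 and AT4G12500. These points share array, scaling and group structure.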

How the data were processed

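Expression was measured in roots with 12 Affymetrix arrays. The deposited intensity of each probe set is linear. The authors had brought the deposited intensities to a trimmed mean of 500.0 per array (2% trimmed at each end), as the values themselves show. The labels name no summarisation software. Of 22810 probe sets 64 controls were left out. The annotation gave 1 gene to 13513 probe sets (13484 matched to a locus) and several to 503, and did not list 8730. For genes with several probe sets the brightest one stands.

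Intensities were transformed as log2(value + 16), which compresses changes of dim probe sets. In limma 3.58.1 (R 4.3.3) each group had its own mean in 1 fit to the 12 arrays, variances were moderated along an intensity trend, and Benjamini-Hochberg adjustment ran over 22746 probe sets, with a false discovery rate of 0.05 as threshold. On simulated arrays with no other change in 22746 probe sets, 82 of 100 probe sets changed by 2 and 50 of 100 changed by 1 (log2) between the WT groups were called. Replicates are biological per the labels. Alternatives were other added values, median centring, quantile normalization, a filter, other variance and replicate settings, and each array left out.

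The members, lists and tests were chosen with earlier results of these data known. The rule for named genes was all measured members, the 3 genes most correlated with each, and from each list those past the threshold. Permutation tests used Python 3.11.15.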

Additional observations from a re-analysis of the deposited data

Results flagged for a closer look

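AT4G12500 moved in opposite directions with nitrogen in the 2 genotypes. Every WT array at low nitrogen lay above every WT array at high nitrogen (log2 change 1.54), and every hni9 array at low nitrogen lay below every hni9 array at high nitrogen (-1.13). The difference, expressed as the interaction, was 2.66 ± 0.39, and it was not tested, because the gene was singled out through one of the comparisons it is built from.

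AT4G29960, chosen for its likeness to AT4G12490, had small log2 differences of hni9 from WT, 0.06 at high and -0.24 at low nitrogen. Its interaction of 0.29 ± 0.13 did not pass (limma adjusted p = 0.42). AT1G50060, chosen for its likeness to AT4G12500, had log2 changes at low nitrogen of 0.75 in WT and -0.18 in hni9. Its interaction was 0.93 ± 0.16. Likeness was sought over the same arrays, so both values describe genes picked for their pattern. The interaction of AT1G50060 is given without a test, since likeness to AT4G12500 favours such a value. The probe set shared by AT5G46890 and AT5G46900 had -0.51 in WT and 0.42 in hni9, an interaction of -0.92 ± 0.18 (limma adjusted p = 0.028).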

How the results depend on the processing

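The rise of AT4G12500 in WT lay between 1.41 and 1.77 with single arrays left out and between 1.44 and 1.59 otherwise, and it lost its call in 1 of 21 alternatives, replicates 1 and 2 alone (1.44, limma adjusted p = 0.119). AT4G12490 in WT kept its sign and did not pass in 21 of 21 (-0.45 to -0.18). At high nitrogen the difference of AT4G12490 between the genotypes turned to -0.20 with replicates 1 and 2 alone and lay between -0.17 and 0.35 with single arrays left out, and that of AT4G12500 lay between -0.37 and 0.26. The described differences at low nitrogen and in hni9 kept their sign in all alternatives run. The counts of called probe sets depended more on the settings. With replicates 1 and 2 alone they were 413 in place of 1305 (WT), 362 in place of 1160 (hni9), 482 in place of 1744 (high nitrogen) and 83 in place of 469 (low nitrogen). Without the intensity trend they were 795, 647, 929 and 156, and 439 for hni9 in a fit to its arrays alone. With single arrays left out they lay between 779 and 1516, 734 and 1071, 1048 and 1988, and 187 and 616. Replicates share numbers, but same-numbered deviations correlated at 0.0227 to 0.15, not always over 0.1, so the numbers were not taken as pairs (in 21 of 24 checks an array's deviations correlated best with those of its own number). With the replicate block the counts were 1485, 1294, 2063 and 623, AT4G12500 in WT kept 1.54 (limma adjusted p = 0.000238), and no call of either gene changed. Without the intensity trend, and with replicates 1 and 2 alone, the calls of EXPA7, of EXPA18 and 248844_s_at in WT and of 254820_s_at were lost as well. Signal over background could not be judged from the deposited intensities.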
